A study of Mus musculus with 10 samples.

Results

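Transcripts of 38 genes of rod and cone photoreceptors were followed in sorted mouse retinal microglia. The genes were taken by symbol from a fixed list, and all 38 were among the 21869 genes in the table of counts. RNA had been sequenced from 10 libraries of wild-type mouse retinal cells, all live, CD11b-positive and CD45int (intermediate for CD45), a gate the labels name microglia. Flow cytometry had parted this gate by CD36. The CD36-positive fraction gave 5 libraries, with the numbers 1, 2, 3, 4 and 7, and the CD36-negative fraction gave 5, with the numbers 1, 2, 4, 7 and 8. CD36 is a scavenger receptor that binds oxidised lipids and takes up fatty acids. The protocol in the labels covers mice given 20 mg/kg of sodium iodate (NaIO3), a toxin of the retinal pigment epithelium, into a vein, and mice given buffered saline (PBS), with eyes collected after 7 days. Which of these the sorted samples received is not stated in the labels, nor are the age, the sex and whether libraries came from separate animals, so p-values measure the spread between these samples only.

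Photoreceptors turn light into an electrical signal. In rods the light-activated pigment switches on the G protein transducin (Gnat1, Gnb1 and Gngt1), which releases the phosphodiesterase PDE6 (Pde6a, Pde6b and its inhibitory subunit Pde6g) to break down cyclic GMP, and cyclic GMP-gated channels (Cnga1 and Cngb1) then close. Cones use their own pigments (Opn1sw and Opn1mw), transducin (Gnat2, Gngt2), phosphodiesterase (Pde6c, Pde6h), channel (Cnga3, Cngb3) and arrestin (Arr3). The mouse retina is rich in rods and poor in cones. Microglia do not use this machinery, and they clear dying photoreceptors and their outer segments.

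The members were divided by role into 12 rod genes, 8 cone genes, 15 genes that both rods and cones use, and Gnb1, Unc119 and Gngt2, which leukocytes and other cells express as well. Levels are given as CPM (counts scaled to a common library size) on library sizes scaled by trimmed mean of M values, and SDs are over the 5 libraries of a group. Photoreceptor transcripts in a bulk library of sorted cells can come from RNA carried over with the drops, from RNA inside cells that took up photoreceptor material, or from photoreceptors in the sort. These counts cannot tell those sources apart, nor fewer such cells from less RNA per cell.

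Short promoter sequences are shown because many rod and cone genes depend on the transcription factor CRX, which binds TAATCC. RefSeq promoters (GRCm38.p6) matched 28 of the 38 members, and the start matched a GENCODE transcript for 24 of these 28. In the 250 bases before the start, TAATCC on either strand (GGATTA when read on the gene's strand from the other side) occurred in 4 of 8 rod promoters, 7 of 12 promoters of genes used by both, 1 of 6 cone promoters and neither of the promoters matched for genes of wider expression. Of 27025 promoters of all genes, 6.38% held it. The cone gene with it was Gnat2. For Gnat2 and the rod genes Gngt1 and Cnga1, all with it, the 150 bases before the start were wholly annotated exon. TGCTGA or TCAGCA, the core of the site that the rod factor NRL binds, occurred in 6 of 28 member promoters and in 15.8% of all promoters. A match is a description of the letters and not evidence of a bound site, and a missing match is not evidence that CRX does not bind. The sequences below are examples, which leave out the rod promoters without a match and that of Gnat2. The 150 bases upstream of the start are given 5′ to 3′ on the gene's strand, with TAATCC or GGATTA in capitals, for 4 members with a match and for 2 cone genes without one. They lie at chr1:87803530-87803679 (plus strand, Sag), chr8:95306586-95306735 (minus, Cngb1), chr14:33953853-33954002 (plus, Rbp3), chr11:72037510-72037659 (minus, Aipl1), chr6:29380514-29380663 (minus, Opn1sw) and chrX:100605347-100605496 (plus, Arr3). None of these windows holds an annotated exon base of any of the 38 members, and exons of other genes were not checked.
Sag: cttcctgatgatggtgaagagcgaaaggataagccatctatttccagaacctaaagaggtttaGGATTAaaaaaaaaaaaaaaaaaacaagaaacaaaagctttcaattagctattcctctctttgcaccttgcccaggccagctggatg
Cngb1: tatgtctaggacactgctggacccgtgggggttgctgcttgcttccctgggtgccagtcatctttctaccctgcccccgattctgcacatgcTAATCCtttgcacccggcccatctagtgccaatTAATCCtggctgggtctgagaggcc
Rbp3: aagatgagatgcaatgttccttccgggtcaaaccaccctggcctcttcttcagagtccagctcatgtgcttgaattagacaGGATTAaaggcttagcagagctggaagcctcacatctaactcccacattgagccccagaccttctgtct
Aipl1: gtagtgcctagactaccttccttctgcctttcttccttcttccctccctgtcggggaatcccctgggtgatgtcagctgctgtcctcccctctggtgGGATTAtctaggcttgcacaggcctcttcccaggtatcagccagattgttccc
Opn1sw: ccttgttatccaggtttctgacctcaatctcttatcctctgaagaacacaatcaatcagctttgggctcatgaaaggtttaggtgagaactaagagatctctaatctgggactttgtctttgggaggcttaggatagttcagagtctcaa
Arr3: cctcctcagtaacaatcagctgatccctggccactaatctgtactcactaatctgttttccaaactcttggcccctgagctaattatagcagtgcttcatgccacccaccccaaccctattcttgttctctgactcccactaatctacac

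The libraries held 5001665 to 13250961 counts, and CD36-positive libraries 1 and 3 were the shallowest. A count of 3 corresponded to 0.238 to 0.558 CPM. Cd36 averaged 50.3 ± 5.51 CPM in CD36-negative and 219 ± 39.9 CPM in CD36-positive libraries (SD, n = 5), a log2 fold change of 2.12. Of the microglial markers, the complement component C1qb averaged 4364 ± 1137 CPM in CD36-negative and 6000 ± 1978 CPM in CD36-positive libraries (SD, n = 5), with at least 3091 CPM in each library. Aif1, a calcium-binding protein of microglia and macrophages, averaged 533 ± 42.6 and 1017 ± 105 CPM and rose (log2 fold change 0.93). Both markers were thus present in every library, beside markers of other leukocytes described further on.

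Rod transcripts were present in all 10 libraries at levels that differed widely. Rod, cone and shared photoreceptor transcripts together made up 0.0148% of all counts in CD36-positive library 7 and 0.282% in CD36-negative library 2. The 12 rod genes summed to 459, 1716, 1039, 259 and 503 CPM in CD36-negative libraries 1, 2, 4, 7 and 8. In CD36-positive libraries 1, 2, 3, 4 and 7 they summed to 192, 701, 299.6, 139 and 85.9 CPM. The means were 795 ± 590 and 283 ± 246 CPM (SD, n = 5), a ratio of 2.81, and the groups overlapped: 3 CD36-positive libraries lay below every CD36-negative one and 2 CD36-negative libraries lay above every CD36-positive one. Library 2 was the highest of its group on both sides of the sort. Within the numbers 1, 2, 4 and 7, present in both groups, the CD36-positive sum was the lower one. The labels do not say that a number marks shared animals. The 15 genes that rods and cones share followed the same order of libraries except that CD36-positive libraries 1 and 4 changed places, at 286, 1112, 626, 174 and 323 CPM in CD36-negative libraries and 124, 507, 208, 125 and 68.9 CPM in CD36-positive libraries. Their means were 504 ± 379 and 206 ± 175 CPM (SD, n = 5), a ratio of 2.44. No test was run on these sums, since the genes were chosen with results of these data known.

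**Figure D1:**
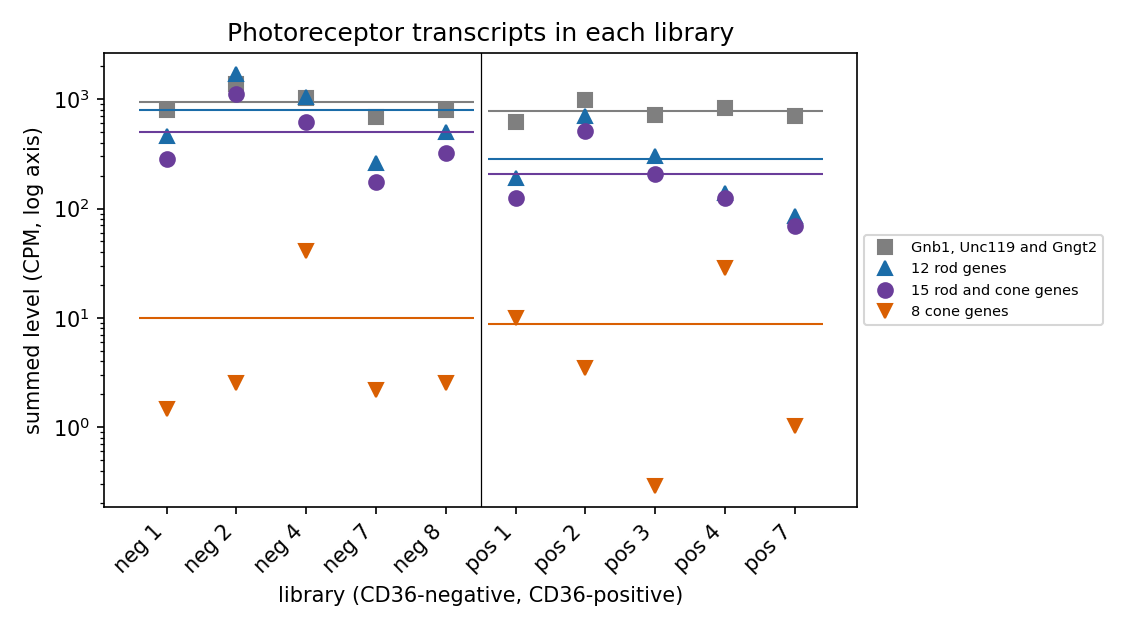
Summed level of each group of photoreceptor genes (CPM, log axis) in each of the 10 libraries, CD36-negative at left and CD36-positive at right; symbols are libraries and horizontal lines are group means. Rod sums run from 85.9 CPM in CD36-positive library 7 to 1716 CPM in CD36-negative library 2, while cone sums are highest in both libraries numbered 4 (41.2 and 28.8 CPM).

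Most tested members had a fitted level below that of CD36-negative libraries, but 28 of 30 did not pass the test. Of the 38 members, 30 had enough counts to be tested with edgeR, and 29 of these had a log2 fold change (CD36-positive over CD36-negative) below 0, with a median of -1.44. Over all 11596 genes tested the median was 0.02, and 48.8% were below 0. At an adjusted p of 0.05, 2 members were called lower, against 4.74% of all tested genes, and 0 were called higher, against 2.61%. At an unadjusted p of 0.05, 15 members were lower and 0 higher, against 10.8% and 10.6% of all tested genes. No member had every CD36-positive library below every CD36-negative one, which 5.83% of all tested genes had. The count called with edgeR rested on single libraries: leaving out CD36-positive library 2 gave 11 of 30, against 4.79% of all genes, and leaving out both libraries numbered 2 gave 9 of 30, against 3.44%. It was 4 of 30 (3.76% of all genes) when CD36-negative library 7 was left out, and 1 when CD36-negative library 8 (3.88%) or CD36-positive library 1 (4.93%) was. It was 0 when CD36-negative library 2 or 4, or CD36-positive library 4 or 7, was left out, against 3.57% to 4.83% of all genes. The DESeq2 Wald test called 4 members lower and 0 higher, against 6.41% and 4.6% of all genes. Without a filter on low counts edgeR called 13 of 38 lower and 0 higher, against 3.37% and 1.97% of all genes.

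**Figure D2:**
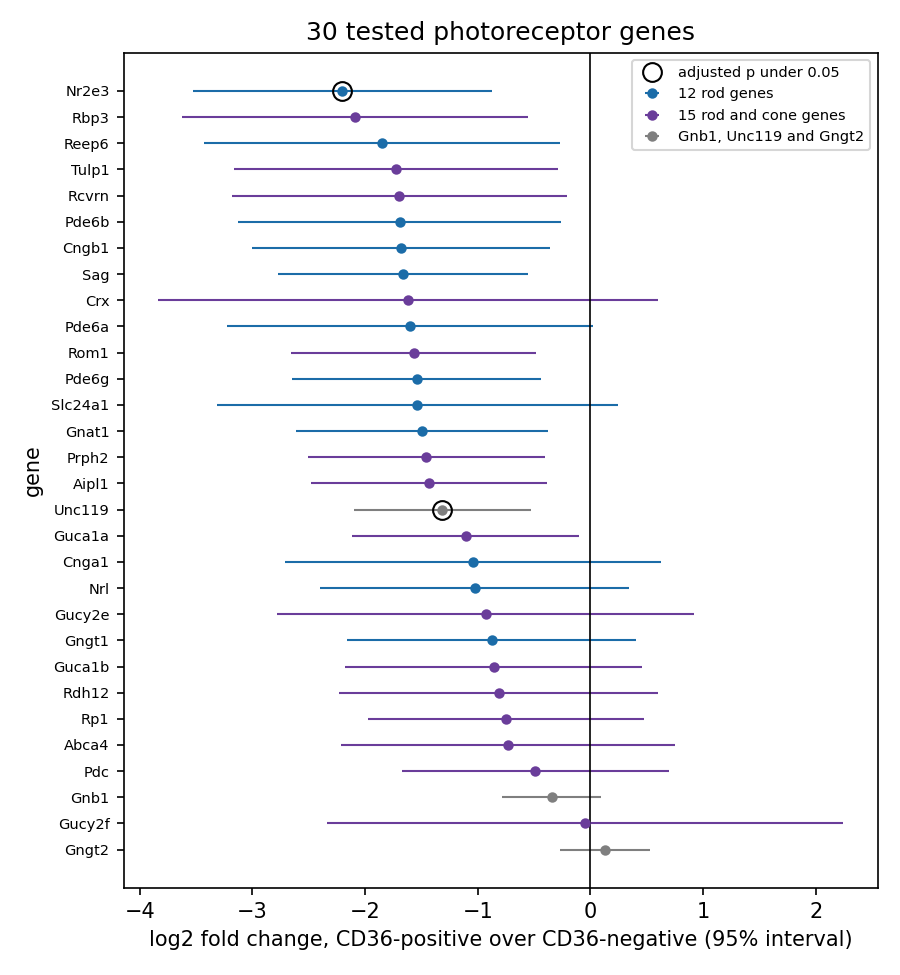
Log2 fold change with its 95% interval from edgeR for the 30 tested members, ordered by size, coloured by role, with a ring around the 2 that passed an adjusted p of 0.05. Points left of the vertical line at 0 are lower in CD36-positive libraries: 29 of 30 lie there, and the intervals of 15 exclude 0.

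Among the rod genes, Nr2e3 fell. It encodes a nuclear receptor that represses cone genes in rods. Its level was 12.3, 48.8, 21.9, 4.39 and 15.4 CPM in CD36-negative libraries 1, 2, 4, 7 and 8, and 2.42, 11.97, 2.44, 3.94 and 1.43 CPM in CD36-positive libraries 1, 2, 3, 4 and 7. Every CD36-positive library other than 2 lay below every CD36-negative library. The log2 fold change was -2.20 (SE 0.63, edgeR adjusted p = 0.0420). Leaving out CD36-negative library 2, 4 or 8, or CD36-positive library 1, 3, 4 or 7, ended this call. Nr2e3 shares 61 of its 3369 exon bases with the noncoding gene Gm15507. Nrl, which encodes the factor that sets rod fate, stood at 3.60, 20.9, 15.8, 3.45 and 7.27 CPM in CD36-negative and 4.47, 8.69, 6.45, 0.563 and 4.76 CPM in CD36-positive libraries. Its groups overlapped, with a log2 fold change of -1.03 (SE 0.65, edgeR adjusted p = 0.391), and -0.59 without CD36-negative library 2.

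Sag and Gnat1 were the most abundant rod members. Sag encodes rod arrestin, which ends the light response. It was at 127, 547, 319.8, 85.6 and 156 CPM in CD36-negative libraries and 50.4, 204, 66.1, 42.6 and 26.9 CPM in CD36-positive libraries. The mean was 3.17 times as high in CD36-negative libraries, and only CD36-positive library 2 reached into their range. The log2 fold change of Sag was -1.66 (SE 0.52, edgeR adjusted p = 0.0666). Sag passed the threshold at -2.43 without CD36-positive library 2 and at -1.88 without CD36-negative library 7, and was at -1.14 without CD36-negative library 2. Gnat1, the rod transducin alpha subunit, was at 140.4, 446, 345, 85.2 and 169 CPM in CD36-negative libraries and 27.7, 218, 96.9, 52.1 and 26.4 CPM in CD36-positive libraries. CD36-positive libraries 2 and 3 lay within the CD36-negative range, and the log2 fold change was -1.49 (SE 0.53, edgeR adjusted p = 0.104). Gnat1 passed at -2.25 without CD36-positive library 2.

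Gngt1, the rod transducin gamma subunit, overlapped more. Its levels were 49.7, 204, 90.0, 19.0 and 40.1 CPM in CD36-negative libraries and 56.2, 92.1, 51.3, 12.95 and 7.37 CPM in CD36-positive libraries. The log2 fold change was -0.88 (SE 0.61, edgeR adjusted p = 0.445), and -0.18 without CD36-negative library 2. Pde6g was at 57.0, 212, 94.9, 24.2 and 43.7 CPM in CD36-negative libraries and 19.9, 65.9, 35.0, 16.2 and 11.2 CPM in CD36-positive libraries. CD36-positive libraries 2 and 3 again lay in the CD36-negative range, with a log2 fold change of -1.54 (SE 0.52, edgeR adjusted p = 0.0884). Pde6g passed at -2.10 without CD36-positive library 2 and at -1.78 without CD36-negative library 7, and was at -0.89 without CD36-negative library 2. The catalytic subunits Pde6a and Pde6b, the channel subunits Cnga1 and Cngb1, the sodium, calcium and potassium exchanger Slc24a1 and the endoplasmic reticulum protein Reep6 had means of 9.33 to 39.2 CPM in CD36-negative and 3.06 to 12.04 CPM in CD36-positive libraries. In all, the 12 rod genes had log2 fold changes from -2.20 to -0.88, with a median of -1.57, and 1 passed the test.

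**Figure D3:**
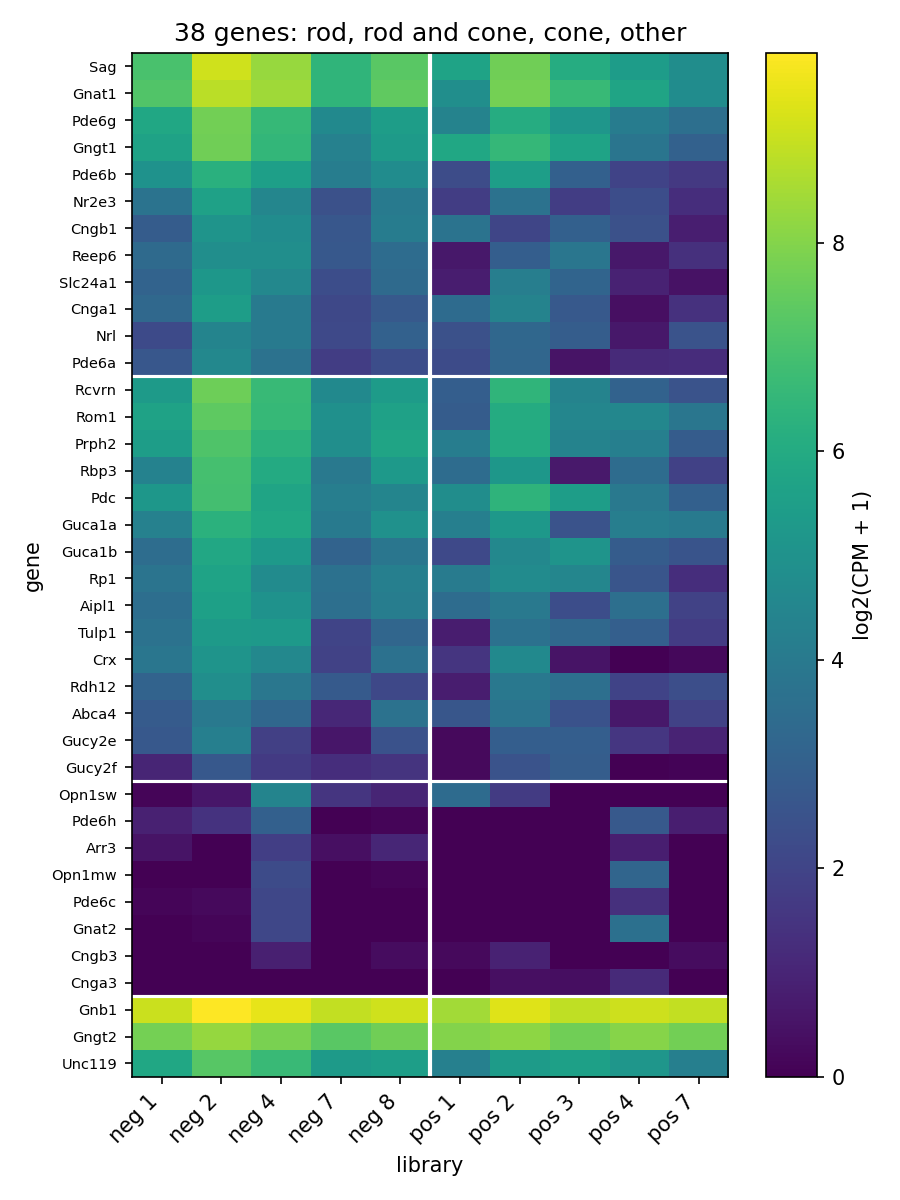
Level of each of the 38 members (rows, log2 of CPM plus 1) in each library (columns), with rod genes, genes of rods and cones, cone genes and the 3 genes of wider expression separated by horizontal white lines and the groups by a vertical one. CD36-negative library 2 is brightest for most rod and shared genes, and cone genes stand out in both libraries numbered 4.

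None of the 15 genes used by both rods and cones passed the test. Their log2 fold changes ran from -2.09 (Rbp3) to -0.05 (Gucy2f), all below 0, with a median of -1.11. Rcvrn encodes recoverin, a calcium sensor of the light response. It was at 39.4, 199, 96.9, 24.1 and 41.5 CPM in CD36-negative libraries and 6.70, 84.6, 19.8, 7.55 and 4.76 CPM in CD36-positive libraries. Every CD36-positive library other than 2 lay below the CD36-negative range, and the log2 fold change was -1.70 (SE 0.70, edgeR adjusted p = 0.167). Leaving out CD36-positive library 2 gave -3.08, past the threshold, and leaving out CD36-negative library 2 gave -1.03. Rom1 and Prph2 encode the tetraspanins of the outer segment disc rim. Rom1 was at 49.8, 164, 93.7, 29.5 and 48.8 CPM in CD36-negative libraries and 6.33, 65.4, 21.9, 22.4 and 13.4 CPM in CD36-positive libraries. Prph2 was at 42.7, 139, 79.5, 27.9 and 52.9 CPM in CD36-negative libraries and 16.8, 63.7, 19.9, 18.02 and 6.34 CPM in CD36-positive libraries. In both genes CD36-positive library 2 alone reached into the CD36-negative range, and the edgeR adjusted p was 0.0785 for Rom1 (log2 fold change -1.57, SE 0.52) and 0.0919 for Prph2 (-1.46, SE 0.50). Without CD36-positive library 2 both passed, at -2.28 and -2.19.

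Single libraries weighed heavily on Pdc and Crx. Pdc encodes phosducin, which binds transducin beta and gamma subunits. It was at 35.5, 118, 53.0, 17.6 and 21.0 CPM in CD36-negative libraries and 27.2, 82.2, 43.6, 14.5 and 6.97 CPM in CD36-positive libraries. The ranges overlapped over most of their length, with a log2 fold change of -0.49 (SE 0.56, edgeR adjusted p = 0.678), and it turned to 0.13 without CD36-negative library 2. Crx was at 13.6, 32.5, 23.0, 2.82 and 11.6 CPM in CD36-negative libraries and 1.86, 24.6, 0.430, 0 and 0.159 CPM in CD36-positive libraries. The CD36-positive mean of Crx thus came mostly from library 2, with 218 counts. The log2 fold change was -1.62 (SE 1.05, edgeR adjusted p = 0.409), and it was -4.97 without CD36-positive library 2, where Crx passed the test. Rbp3, a retinoid carrier of the space around outer segments, was at 19.5, 120.2, 62.4, 14.8 and 38.02 CPM in CD36-negative libraries and 10.2, 36.0, 0.573, 10.1 and 2.69 CPM in CD36-positive libraries. Its edgeR adjusted p was 0.0969. The calcium-dependent activators Guca1a and Guca1b, the guanylate cyclases Gucy2e and Gucy2f, the retinoid enzymes and carriers Abca4 and Rdh12, the chaperone Aipl1, the transport protein Tulp1 and the axoneme protein Rp1 had group means from 2.29 to 39.8 CPM.

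Of the 3 genes of wider expression, Unc119 fell. It encodes a chaperone that carries lipid-modified proteins such as transducin alpha. Its level was 57.0, 155, 100.3, 39.6 and 43.9 CPM in CD36-negative libraries and 18.6, 41.0, 46.7, 34.7 and 18.1 CPM in CD36-positive libraries. CD36-positive libraries 2 and 3 lay in the CD36-negative range, and the log2 fold change was -1.31 (SE 0.37, edgeR adjusted p = 0.0395). Leaving out CD36-negative library 2 or 4, or CD36-positive library 1, 4 or 7, ended this call. Gnb1, a beta subunit of rod transducin and of other G proteins, was the most abundant member at 519, 904, 704, 488 and 548 CPM in CD36-negative libraries and 347, 655, 465, 541 and 481 CPM in CD36-positive libraries. Its log2 fold change was -0.35 (SE 0.21, edgeR adjusted p = 0.364). Gngt2, the cone transducin gamma subunit, was at 216, 309, 228, 157 and 207 CPM in CD36-negative libraries and 257, 287, 204, 264 and 211 CPM in CD36-positive libraries. It was the 1 tested member with a log2 fold change above 0 (0.13, SE 0.19, edgeR adjusted p = 0.747), and its levels did not follow those of the cone genes. Gngt2 shares 234 exon bases with Abi3 on the opposite strand, which averaged 303.7 and 263 CPM, and since the sources used here do not give the strand setting of the counting, reads of the overlap cannot be told apart.

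Per kilobase of annotated exon, the CD36-negative means put Gnb1 (148 CPM per kilobase) and Gngt2 (119) first, followed by Gnat1 (78.2), Rcvrn (77.1), Rom1 (50.9), Guca1a (45.6), Pde6g (37.2), Unc119 (32.3) and Sag (27.8). The cone genes lay between 0 and 1.88 CPM per kilobase. Gnat1 and Rcvrn were within each other's spread between libraries.

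Cone transcripts were rare and did not follow the rod transcripts from library to library. None of the 8 cone genes passed the filter on low counts, and without that filter edgeR called 0 of them at an adjusted p of 0.05. Summed, they gave 17, 25, 403, 21 and 30 counts in CD36-negative libraries 1, 2, 4, 7 and 8, or 1.46, 2.52, 41.2, 2.19 and 2.51 CPM. In CD36-positive libraries 1, 2, 3, 4 and 7 they gave 54, 31, 2, 256 and 13 counts, or 10.1, 3.50, 0.287, 28.8 and 1.03 CPM. The group means were 9.98 ± 17.5 and 8.74 ± 11.9 CPM (SD, n = 5), a difference far inside the spread. Both libraries numbered 4 carried the most cone counts of their group, while both numbered 2, the richest in rod transcripts, carried few.

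As a share of rod plus cone counts, cone genes took 17.2% (exact binomial 95% interval 15.3 to 19.2) in CD36-positive library 4, 4.97% (3.76 to 6.44) in CD36-positive library 1 and 3.82% (3.46 to 4.199) in CD36-negative library 4. In the other 7 libraries the share ran from 0.0956% (CD36-positive library 3, interval 0.0116 to 0.345) to 1.19% (CD36-positive library 7, 0.633 to 2.02). The rod sum was 681 times the cone sum in CD36-negative library 2 and 4.81 times in CD36-positive library 4. PCR copies of a molecule are counted again as reads, so these intervals cover counting error only.

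The cone counts were also made up of different genes in different libraries. Opn1sw, the short-wavelength pigment, had 1, 5, 201, 18 and 12 counts in CD36-negative libraries and 53, 20, 0, 0 and 0 in CD36-positive libraries. Opn1mw, the middle-wavelength pigment, had 36 counts in CD36-negative library 4, 73 in CD36-positive library 4, 1 in CD36-negative library 8 and 0 in the other 7. Gnat2, the cone transducin alpha subunit, had 32 counts in CD36-negative library 4, 100 in CD36-positive library 4, 1 in CD36-negative library 2 and 0 in the other 7. So CD36-positive library 4 held Gnat2 and Opn1mw with no count of Opn1sw, CD36-positive library 1 held Opn1sw with no count of either, and CD36-negative library 4 held all of them. A count of 0 allows up to 3 counts, or 0.338 CPM in CD36-positive library 4 and 0.558 CPM in CD36-positive library 1.

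Pde6h, the inhibitory subunit of cone phosphodiesterase, had 10, 17, 69, 0 and 1 counts in CD36-negative libraries and 0, 0, 0, 51 and 10 in CD36-positive libraries. Arr3, cone arrestin, had 5, 0, 25, 3 and 13 counts in CD36-negative libraries and 7 in CD36-positive library 4 alone. Pde6c, the catalytic subunit, had 32 counts in CD36-negative library 4 and 14 in CD36-positive library 4, against 0 to 2 elsewhere. The channel subunit Cngb3 had at most 8 counts in any library, and Cnga3 had 0 counts in all CD36-negative libraries and at most 11 in a CD36-positive one. Pde6h and Opn1sw overlap exons on the opposite strand, Pde6h over 136 bases of Arhgdib (576 and 709 CPM) and Opn1sw over 397 bases of Calu (111 and 119 CPM). Both neighbours were measured in each group at levels far above the cone genes. Pde6h had 0 counts in CD36-negative library 7 and in CD36-positive libraries 1, 2 and 3. Opn1sw had 0 counts in CD36-positive libraries 3, 4 and 7. The part of the overlaps in these counts was not tested.

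**Figure D4:**
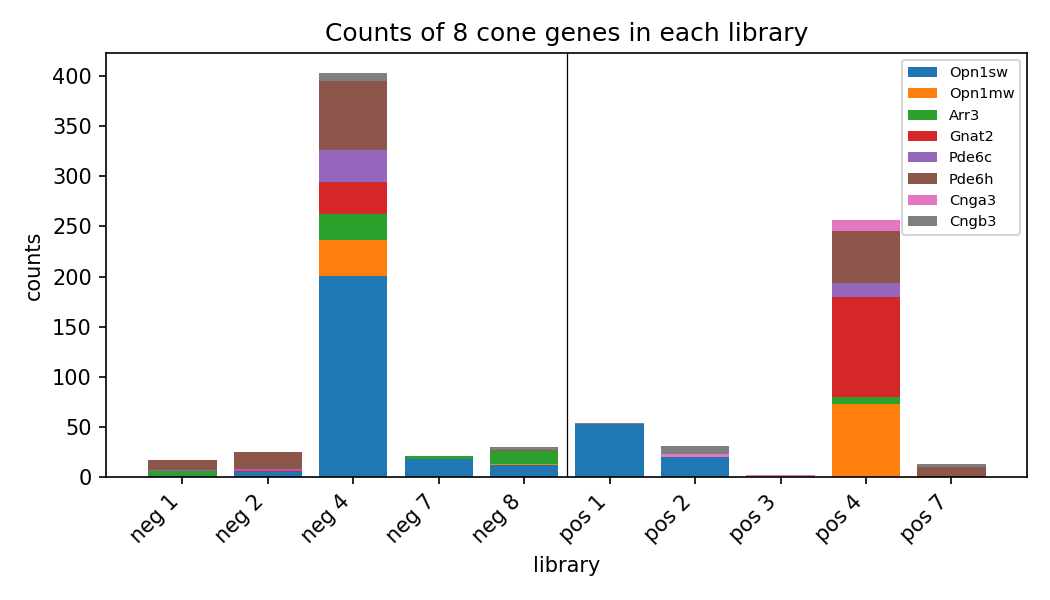
Counts of the 8 cone genes in each library, stacked by gene, CD36-negative at left and CD36-positive at right. The 403 counts of CD36-negative library 4 are led by Opn1sw, the 256 counts of CD36-positive library 4 by Gnat2 and Opn1mw, and no other library exceeds 54.

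The mix of rod and shared transcripts was even among CD36-negative libraries and uneven among most CD36-positive ones. Each gene's count was compared with the count it would have had at its mean share of rod and shared counts in CD36-negative libraries (in the other 4 for a CD36-negative library), over genes with an expected count of at least 20. In CD36-negative libraries 1, 2, 4, 7 and 8, 25 of 26, 27 of 27, 26 of 27, 22 of 26 and 24 of 26 genes lay within 2-fold of that share. In CD36-positive libraries 1, 2, 3, 4 and 7 it was 8 of 19, 25 of 27, 13 of 25, 14 of 22 and 13 of 20. CD36-positive library 2, with 10696 rod and shared counts, thus had a mix within the range of the CD36-negative libraries. The other CD36-positive libraries held 1698 to 3541 such counts, and CD36-negative library 7, the poorest of its group, held 4153.

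The same genes recurred among the departures. Crx was below expectation in 4 CD36-positive libraries, with 10 counts against 21.8 in library 1, 3 against 45.5 in library 3, 0 against 30.1 in library 4 and 2 against 25.1 in library 7. Pde6b was also short in these 4 libraries. In CD36-negative library 7 Crx was short too, with 27 counts against 59.9, beside Abca4, Gucy2e and Tulp1. In CD36-positive library 3 Rbp3 had 4 counts against 132, while Guca1b had 229 against 64.6. In CD36-positive library 1 Gngt1 had 302 counts against 96.9. The ratio of the rod to the shared sum was 1.49 to 1.66 in CD36-negative libraries and 1.11 to 1.55 in CD36-positive libraries. Depth differed beside this. CD36-positive libraries 1 and 3 had the fewest total counts, but CD36-positive library 7 had the most (13250961) and CD36-positive library 4 had 9020728. The part of depth in the uneven mix was not tested.

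**Figure D5:**
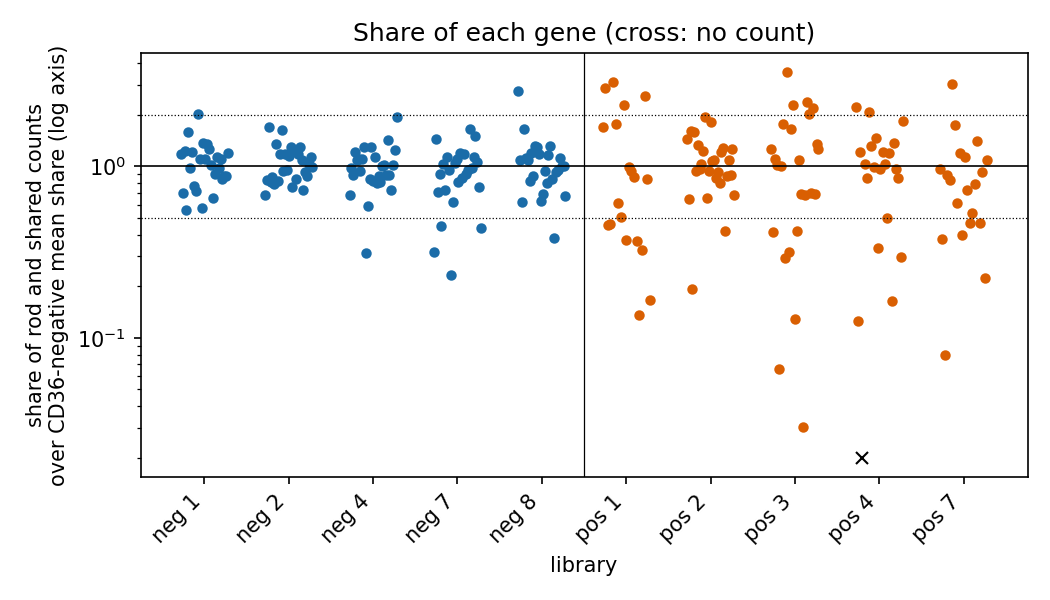
Each point is 1 rod or shared gene: its share of all rod and shared counts in that library over its mean share in CD36-negative libraries (log axis), for genes with an expected count of at least 20. Dotted lines mark 2-fold either way and the cross marks Crx in CD36-positive library 4, with no count; points stay between the lines in CD36-negative libraries with few exceptions and leave them often in CD36-positive libraries 1, 3, 4 and 7.

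Of 43 further photoreceptor genes listed by role, 42 were in the table and 35 could be tested. With edgeR 0 were called in either direction at an adjusted p of 0.05, with 4 of 35 lower and 0 higher at an unadjusted p of 0.05 (10.8% and 10.6% of all tested genes). The DESeq2 Wald test called 2 lower, against 6.41% of all genes. The shares lower at the unadjusted p and with DESeq2 thus lay near the background, while the share higher at the unadjusted p lay below it. Of the 35, 27 had a log2 fold change below 0 and the median was -0.88. Over all tested genes 48.8% were below 0 and the median was 0.02. The highest were Cnnm4, a metal transporter (74.3 ± 11.3 CPM in CD36-negative and 69.7 ± 15.3 CPM in CD36-positive libraries, SD, n = 5), and Rpgrip1, a scaffold of the connecting cilium (63.1 ± 43.7 and 68.1 ± 15.3 CPM). Rpgrip1 was highest in libraries 2 and 4 of the CD36-negative group (135 and 73.0 CPM), as the rod sum was, and Cnnm4 was lowest in library 2 of that group (55.0 CPM). In CD36-positive libraries 1, 2, 3, 4 and 7 Rpgrip1 was at 81.3, 71.0, 80.7, 44.0 and 63.55 CPM. That order differed from the order of the rod sum.

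Markers of other cells moved with the sort. Of the tested markers, 8 of 9 neutrophil, 7 of 8 T and NK cell, 11 of 13 dendritic cell and 10 of 13 monocyte genes fell in CD36-positive libraries, and 1, the dendritic cell gene Bst2, rose. Of all tested genes 4.74% were called lower and 2.61% higher. The neutrophil genes Retnlg and G0s2 had 0 CPM in every CD36-positive library, so they passed the filter only through the CD36-negative group. The neutrophil list summed to 343 to 879.9 CPM in CD36-negative and 84.7 to 194 CPM in CD36-positive libraries, and the T and NK cell list to 83.0 to 426 and 4.28 to 22.8 CPM. The dendritic cell list summed to 1121 to 1534 and 559 to 1184 CPM, of which Bst2 alone gave 357 to 453 and 521 to 1082 CPM, and the monocyte list to 1374 to 2372 and 479 to 991 CPM. Their part in the lower photoreceptor levels was not tested.

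Markers of other cells of the eye were also present. Over all tested genes, edgeR called 4.74% lower and 2.61% higher. The 27 markers of inner retinal neurons summed to 46.9 to 109.6 CPM in CD36-negative and 18.1 to 70.2 CPM in CD36-positive libraries, and 2 of the 7 tested fell (Rbpms and Thy1). Thy1 was highest in CD36-negative libraries 1 and 2 (7.72 and 7.45 CPM), as the T and NK cell list was (426 and 379 CPM). Whether these transcripts came from neurons or from leukocytes was not tested. The 15 markers of Müller glia and astrocytes summed to 153 to 259 and 189 to 240.2 CPM; Kcnj10 rose, Clu fell, 7 others of the 9 tested did not pass and Pax2 was at 0. The retinal pigment epithelium list summed to 19.4 to 79.3 and 23.5 to 52.1 CPM, with 0 of 4 tested genes called at an adjusted p of 0.05 by edgeR and Mlana at 0. The endothelium and pericyte list summed to 31.1 to 47.4 and 14.5 to 18.9 CPM, and Pecam1 and Flt1 fell among 6 tested. The part of these cells in the photoreceptor levels was not tested.

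The libraries also differed in the level of 3 Y-linked genes, which was 184 to 324 CPM in libraries 1, 2 and 3 and 18.4 to 57.6 CPM in libraries 4, 7 and 8 of both groups. Within the high libraries the rod sum averaged 1087 CPM in 2 CD36-negative and 397 CPM in 3 CD36-positive libraries, a ratio of 2.74, with overlapping ranges. Within the low libraries it averaged 600.4 CPM in 3 CD36-negative and 112 CPM in 2 CD36-positive libraries, a ratio of 5.35, and the ranges did not overlap (259 to 1039 against 85.9 to 139 CPM). Fitted within the low libraries, edgeR called 14 of 36 tested members lower at an adjusted p of 0.05, against 3.88% of all genes. Of the 14, 1 was the cone gene Opn1sw and the others were rod or shared genes. Opn1sw had 201, 18 and 12 counts in CD36-negative libraries 4, 7 and 8 and 0 in CD36-positive libraries 4 and 7. Opn1sw thus passed the filter only through the CD36-negative libraries, and its call is not a result for cones. CD36-positive library 4 held 256 cone counts. Within the high libraries edgeR called 0 of 31, against 1.7%. Over all 10 libraries, adjusted for that level as a covariate, it called 11 of 30 lower, against 5.36% of all genes. These splits were added after the data were seen, and the difference between them was not tested.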

How the data were processed

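Per gene symbol, the authors deposited expected counts, which are estimated and may hold fractions (91.9% were whole), without normalization. Tools named in the submitters' processing notes are HISAT2 2.1.0, StringTie 1.3.1, Bowtie2 2.2.8 and fastp 0.18.0, with build mm10; what counted the reads, and whether by strand, is unknown from the sources used here. Of 22008 lines, 8 malformed and 131 repeated ones were dropped, the nearest 22 lines from a member. Some results are not reported here.

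Rounded counts passed edgeR's filterByExpr (minimum count 10) and TMM scaling, and edgeR 4.0.16 in R 4.3.3 fitted its quasi-likelihood model with group as the only term. Benjamini-Hochberg adjustment ran over all 11596 genes tested, at 0.05. The script was tested on simulated data. Exon lengths and overlaps are from GENCODE vM21 (GRCm38). The members and all lists were chosen with earlier results of these data known. The genes described in full are the called members, the 4 most abundant of each role, Gnb1, Unc119, Gngt2, Nrl, Nr2e3 and Crx, the 2 most abundant comparators of each list with up to 5 called, and Cd36, though not every comparator is described; other members are named beyond this rule, after their values were seen. Groups follow the description label. Between any 2 replicates the counts differed beyond sampling noise (chi-square per degree of freedom at least 22.1). Alternatives were other size factors, other filters, a replicate block, libraries left out, genes detected as a covariate, DESeq2 1.42.0 and an adjusted p of 0.01. Fits without both libraries numbered 2 or 4, with the 8 libraries of shared numbers alone, and by Y-linked level were added after seeing the data.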

Additional observations from a re-analysis of the deposited data

Results flagged for a closer look

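Values that stood apart from the other 4 of their group, by a gap over 0.71 of the group's range, were found in 15 of 46 groups of 5 libraries looked at; chance flags about 1 group in 20, and the members share libraries, so these are not independent of each other.

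CD36-positive library 2 was high for 6 genes: Sag at 204.3 CPM (next 66.1), Rcvrn at 84.56 (19.8), Rom1 at 65.36 (22.4), Prph2 at 63.67 (19.9), Crx at 24.61 (1.86) and Nr2e3 at 11.97 (3.94). CD36-negative library 4 was high for the cone sum at 41.21 CPM (next 2.52), Opn1sw at 20.55, Pde6h at 7.055, Opn1mw at 3.681 and Gnat2 at 3.272 CPM. CD36-positive library 4 was high for Gnat2 at 11.26, Opn1mw at 8.222 and Pde6h at 5.744 CPM, and CD36-positive library 1 for Opn1sw at 9.862 CPM. The causes were not tested.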

How the results depend on the processing

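The number of members called lower, 2 as reported, was 0 at an adjusted p of 0.01, 13 without a filter, 14 of 31 with the replicate block (libraries numbered 1, 2, 4 and 7; 4.01% of all genes), 1 without CD36-positive libraries 1 and 3, 9 without both libraries numbered 2, 0 without both numbered 4, 0 in the libraries of high and 14 in those of low Y-linked level, 11 with that level as a covariate, 1 with genes detected as a covariate and 4 with DESeq2; with 1 library left out it ran from 0 to 11. Other size factors, a filter of 10 CPM in 5 libraries and the 8 libraries of the block without it gave 2, in the last case Reep6 and Unc119 in place of Nr2e3 and Unc119. No setting called a member higher. Of the further photoreceptor genes, 0 as reported, 2 were lower without a filter, 3 with the block, 2 in its 8 libraries alone, 1 without CD36-positive libraries 1 and 3, 1 without both libraries numbered 2, 5 at low Y-linked level, 2 with that level and 1 with genes detected as a covariate, 2 with DESeq2, and 0 to 3 with 1 library left out. Over all genes, 550 lower became 330 at 0.01 and 215 at high Y-linked level (422 to 583 with 1 left out), and 303 higher became 90 at 0.01, 181 with the block, 146 in its 8 libraries, 188 without CD36-positive libraries 1 and 3, 132 without both libraries numbered 2, 155 without both numbered 4, 33 at high and 137 at low Y-linked level, and 533 with DESeq2 (132 to 380 with 1 left out). With 1 library left out the log2 fold change of Pdc ran from -1.12 to 0.13, reversed without CD36-negative library 2, and that of Gngt2 was -0.12 at high Y-linked level. The cause of these shifts was not tested.

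Libraries with the same number deviated together only weakly (r across genes 0.03, 0.13, 0.10 and 0.10 for numbers 1, 2, 4 and 7, not all over 0.1). Pairs of libraries with different numbers ran from -0.198 to 0.124. All same-number values were thus positive, and only that of number 2 lay above every pair of different numbers. These values do not settle a pairing. The labels state none, so the main fit left the numbers out, and calls under the block are a hint from the data only. Other values did go with the numbers. Libraries 1 and 2 of both groups had a high Y-linked level, and libraries 4 and 7 of both had a low one. Within these numbers the rod sum was lower in the CD36-positive library (192 against 459, 701 against 1716, 139 against 1039 and 85.9 against 259 CPM). Whether the numbers mark shared animals was not tested. The log2 ratio of group means lay between -2.15 and -0.996 for the rod sum, -1.94 and -0.77 for the shared sum and -1.43 and 2.01 for the cone sum with 1 library left out, so the cone sum has no stable direction. None of the 8 cone genes passed the filter on low counts over all 10 libraries. Of those that could be tested at low Y-linked level, Opn1sw was called lower. It passed the filter there only through CD36-negative libraries, so this is not a result for cones.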

Other observations

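Hemoglobin transcripts, a sign of red blood cells or their RNA, stood apart in 1 library of each group. The 5 erythrocyte genes summed to 758 CPM in CD36-negative library 1 and 2288 CPM in CD36-positive library 3, against 4.28 to 23.6 CPM in the other 8 libraries, and 0 of the 4 tested passed an adjusted p of 0.05 with edgeR (0 at an unadjusted p of 0.05). Rod sums in those 2 libraries were 459 and 299.6 CPM, neither the highest nor the lowest of their group.

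Grk1, the kinase of the rod and cone pigments, was at 29.5, 52.0, 29.8, 12.95 and 28 CPM in CD36-negative libraries and 108, 47.3, 68.1, 20.1 and 10.3 CPM in CD36-positive libraries 1, 2, 3, 4 and 7. Its highest value was in CD36-positive library 1, where Sag and Gnat1 were low. This gene was picked with its values in view.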
